A study of Mus musculus with 7 samples.

Results

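The genes described here are C1qa, C1qb and C1qc, which encode the A, B and C chains of complement protein C1q. Their probe sets were found by symbol in the authors' deposited fold table, each gene had 1, and these 3 stand among 22206 probe sets of transcript clusters on the array. Expression was measured in astrocytes purified from whole brains of 7 mice, 1 array per animal. The 3 CETP transgenic animals on a diet with 1% cholesterol are replicates 1, 2 and 3, and the 2 CETP transgenic animals labelled as standard diet are replicates 4 and 5. The 2 wild-type animals on the standard diet are replicates 2 and 3. The CETP strain, B6.CBA-Tg(CETP)5203Tall/J, expresses human CETP, the plasma cholesteryl ester transfer protein, which exchanges lipids among lipoproteins and has no mouse counterpart. The series' design text says that dietary cholesterol induces CETP expression. Per the labels, that diet lasted 2 months, between 2 and 4 months of age. The growth protocol names no CETP animals on another diet, so the diet of replicates 4 and 5 rests on their own label. The sources used here give neither the age of the animals on the standard diet nor the sex of any animal. The transgene's own level was not analysed here.

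C1q is the recognition molecule of the classical complement pathway. An A and a B chain are linked to each other, C chains pair among themselves, and the chains wind into collagen-like stalks that end in globular heads. These heads bind antibody complexes, dying cells and other surfaces, upon which the attached proteases C1r and C1s cleave C4 and C2 and so lead to C3. In mouse brain C1q is made mainly by microglia, the resident macrophages, and it tags synapses for removal. In mouse culture, C1q released by microglia with interleukin 1 alpha and tumour necrosis factor turns astrocytes to a reactive state.

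The table that gave the names bears on every value below. For all 1778 of its probe sets the sign of the fold was that of the mean of the CETP animals labelled standard diet minus the mean of those on the cholesterol diet, and no fold was smaller than 1.4. The 3 C1q probe sets were thus selected on a measured difference between the CETP groups. The levels in those groups are given as a description, and the comparisons with wild type use the same CETP arrays and are not independent of that choice. With so few arrays per group all values are imprecise. The labels call the cells GLAST positive but name a magnetic ACSA-2 kit, which binds another surface antigen, and give a purity by GFAP staining of more than 70%, so up to the remainder can be other cells. GLAST is the product of Slc1a3. Of 14 astrocyte markers 2 were named here, the glutamate transporter gene Slc1a3 and the transcription factor gene Sox9, and both lay above the negative control median on all 7 arrays. Gfap and Aqp4 were not analysed here.

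C1qb, C1qc and C1qa follow each other on chromosome 4 in the RefSeq table, with no other protein-coding gene between them, and are flanked by Ephb2 and Epha8. Promoter sequences were at hand for 2 of the 3 chains, from RefSeq in build GRCm38.p6. They are shown because the chains shared their highest and their lowest array. C1qa was not in that table. Both sequences lie on the minus strand upstream of the annotated transcript, C1qb at chr4:136886201-136886450 (250 bases) and C1qc at chr4:136892937-136893164 (228 bases, without those nearest the start, which lie inside another annotated transcript). Capitals mark the core AGGAAGT, which is bound by the myeloid transcription factor PU.1 and by other ETS proteins, read here on the opposite strand.
C1qb: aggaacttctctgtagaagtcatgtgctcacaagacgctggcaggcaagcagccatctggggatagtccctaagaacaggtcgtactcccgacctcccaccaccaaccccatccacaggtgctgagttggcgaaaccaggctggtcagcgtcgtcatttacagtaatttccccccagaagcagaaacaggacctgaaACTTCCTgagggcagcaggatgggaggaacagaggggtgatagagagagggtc
C1qc: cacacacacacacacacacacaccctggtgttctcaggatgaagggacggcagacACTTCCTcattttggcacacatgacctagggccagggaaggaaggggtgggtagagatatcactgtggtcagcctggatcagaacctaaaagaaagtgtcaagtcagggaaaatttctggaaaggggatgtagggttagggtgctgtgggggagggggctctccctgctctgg

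The core AGGAAGT occurred once in each of these sequences, on either strand, with its first base 53 bases before the transcript start in C1qb and 195 bases before it in C1qc. It occurred in 7.69% of 32851 promoter windows of 250 bases. The longer form GAGGAAGT, which contains the core, was in the C1qc sequence and not in that of C1qb, and 2.44% of windows held it. Neither sequence held the composite element of ETS proteins and interferon regulatory factors (2.30% of windows) or the interferon response repeat (2.98% of windows). The motifs were chosen after the sequences had been read, and a match is a description of letters only.

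C1qa, the A chain gene, had log2 values of 10.44, 9.10 and 9.70 in CETP mice on the cholesterol diet (replicates 1, 2 and 3). It had 13.62 and 9.46 in CETP mice labelled standard diet (replicates 4 and 5), against 8.85 and 7.59 in wild type (replicates 2 and 3). All 5 CETP arrays lay above both wild-type arrays, and replicate 4 stood far above the rest. The negative control probe sets of the same arrays had medians of 7.48 to 7.69, and C1qa was above that level on 6 of 7 arrays, the exception being wild-type replicate 3. Negative controls are spread widely, with a 95th percentile between 11.82 and 12.21, so a place above their median is no proof of detection. On replicate 4, C1qa exceeded 98.1% of negative controls, and on the other 6 arrays between 48.2% and 88.1%.

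C1qb, the B chain gene, had log2 values of 8.42, 7.14 and 8.99 in CETP mice on the cholesterol diet and 10.60 and 7.26 in CETP mice labelled standard diet, against 6.70 and 6.40 in wild type. The CETP arrays again did not overlap with wild type, but C1qb was above the negative control median on only 3 arrays, cholesterol-diet replicates 1 and 3 and standard-diet replicate 4. C1qc, the C chain gene, had 7.38, 6.53 and 7.97 on the cholesterol diet and 9.93 and 6.84 on the standard-diet label, against 6.90 and 5.99 in wild type. It was above the negative control median on 2 arrays, cholesterol-diet replicate 3 and standard-diet replicate 4. Here the groups overlapped, since cholesterol-diet replicate 2 and standard-diet replicate 5 lay under wild-type replicate 2. Both wild-type values of C1qb and of C1qc were under the negative control median, so the size of any difference from them is uncertain.

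**Figure D1:**
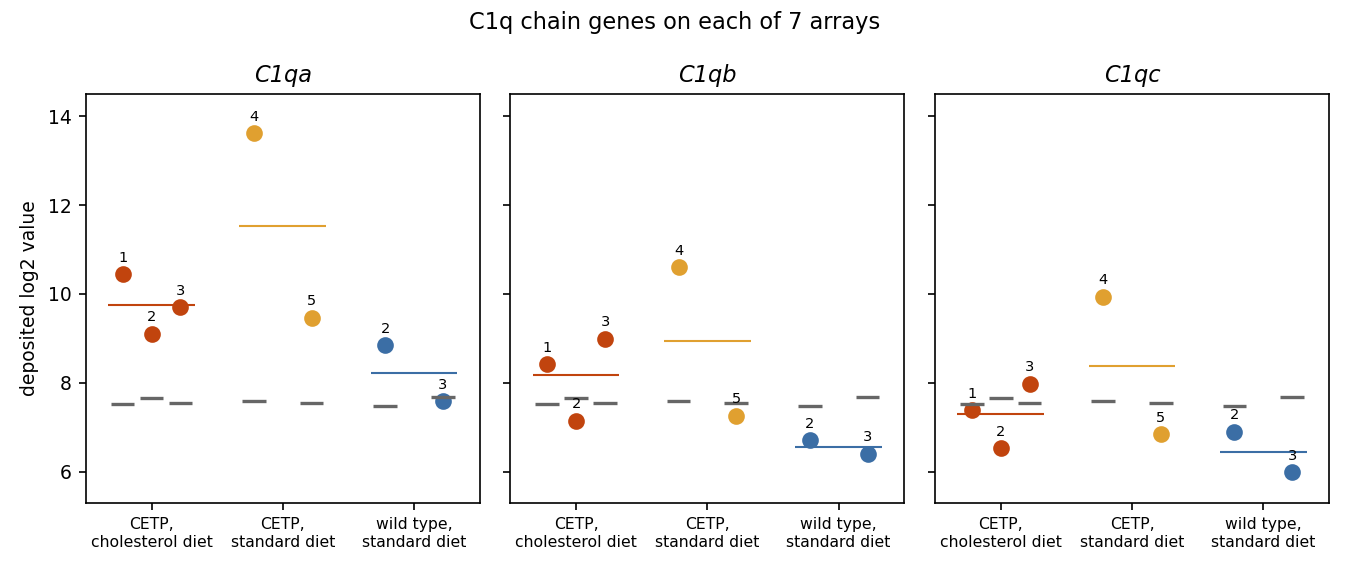
Deposited log2 value (vertical axis) of C1qa, C1qb and C1qc on each of 7 arrays in 3 groups (horizontal axis); coloured dots are arrays with their replicate numbers, coloured lines are group means, and short grey lines are the negative control median of each array. CETP standard-diet replicate 4 is the highest array in each panel, at 13.62, 10.60 and 9.93.

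The arrays of 1 group differed for these genes more than most probe sets did. Between the 2 CETP standard-diet animals C1qa differed by 4.16 on the log2 scale, a 17.8-fold range, and only 3 of 22206 probe sets differed more in that pair, where the median over all was 0.24. C1qb differed by 3.34 and C1qc by 3.09 in the same pair. Among the 3 cholesterol-diet animals the ranges were 1.34 for C1qa, 1.85 for C1qb and 1.45 for C1qc, against a median of 0.41 over all probe sets. Replicate 2 was the lowest of these 3 animals for all 3 chains. Between the 2 wild-type animals C1qa differed by 1.26 and C1qc by 0.91, while C1qb differed by 0.30, close to the median of 0.32. Wild-type replicate 3 was the lowest of all 7 arrays for each chain. The residual SD within groups was 1.61 for C1qa, 1.36 for C1qb and 1.25 for C1qc, against a median of 0.26 over all probe sets.

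All 3 chains were highest on standard-diet replicate 4 and lowest on wild-type replicate 3, while their order on the other arrays differed in part. They had been chosen by a contrast that uses replicate 4. Expressed as deviations from each gene's mean over the 7 arrays, the 3 chains were at 3.79, 2.67 and 2.57 (C1qa, C1qb and C1qc) on standard-diet replicate 4 and at -2.23, -1.53 and -1.37 on wild-type replicate 3. On cholesterol-diet replicate 2 they lay within 0.12 of each other, at -0.72, -0.79 and -0.84. The chains stood furthest apart on standard-diet replicate 4, by 1.22, where C1qa was highest. They were apart by 1.18 on cholesterol-diet replicate 3, where C1qb was highest at 1.06 and C1qa lay at -0.12. The 7 points share animals and arrays, and levels of different probe sets were not set against each other.

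The series' design text compares CETP mice under cholesterol feeding with wild type, so that genotype and diet change together. C1qa averaged 9.75 ± 0.67 (SD, n = 3) in CETP mice on the cholesterol diet and 8.22 ± 0.89 (SD, n = 2) in wild type, a log2 difference of 1.53 ± 0.98 (SE). C1qb averaged 8.18 ± 0.94 (SD, n = 3) on the cholesterol diet and 6.55 ± 0.22 (SD, n = 2) in wild type, a difference of 1.63 ± 0.83 (SE). These 2 chains had all 3 cholesterol-diet arrays above both wild-type arrays, as did 9.98% of all probe sets. C1qc averaged 7.29 ± 0.73 (SD, n = 3) on the cholesterol diet and 6.45 ± 0.65 (SD, n = 2) in wild type, a difference of 0.85 ± 0.77 (SE). None of the 3 chains passed limma's test, with adjusted p of 0.666, 0.605 and 0.762 for C1qa, C1qb and C1qc. Over all 22206 probe sets 0 passed (0%), and 1928 had an unadjusted p under 0.05. On the higher side that level was reached by 0 of the 3 chains and by 3.37% of all probe sets. The 95% interval of the C1qa difference ran from -0.66 to 3.72 and so included 0. In RNA of mixed cells, fewer cells of a type and less RNA per cell cannot be told apart.

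The wide spread came in part from arrays outside this comparison, because the fit pools the spread of all groups. With only these 2 groups in the fit the SE was 0.46 for C1qa and 0.48 for C1qb, and the adjusted p by limma was 0.581 for both. The unadjusted p by limma in that fit was 0.0104 for C1qa, 0.00891 for C1qb and 0.0875 for C1qc. Wild-type replicate 3 mattered for the size. Without it the difference was 0.90 for C1qa, 1.48 for C1qb and 0.39 for C1qc. The hybridization spike-ins, added to each array as a technical standard, had a mean log2 level of 11.41, 11.21 and 11.77 on cholesterol-diet replicates 1, 2 and 3, against 11.00 and 10.80 on wild-type replicates 2 and 3. They were thus higher on the cholesterol-diet arrays, and lowest on the array with the lowest C1q values. With that level as a covariate the differences were 2.03 ± 1.74 (SE) for C1qa, 1.08 ± 1.48 for C1qb and 0.34 ± 1.36 for C1qc.

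The second comparison set CETP mice labelled standard diet against wild type, which holds the diet label equal. C1qa averaged 11.54 ± 2.94 (SD, n = 2) in CETP mice labelled standard diet and 8.22 ± 0.89 (SD, n = 2) in wild type, a log2 difference of 3.32 ± 1.07 (SE). C1qb averaged 8.93 ± 2.36 (SD, n = 2) in these CETP mice and 6.55 ± 0.22 (SD, n = 2) in wild type, a difference of 2.38 ± 0.91. C1qc averaged 8.39 ± 2.19 (SD, n = 2) in these CETP mice and 6.45 ± 0.65 (SD, n = 2) in wild type, a difference of 1.94 ± 0.84. For each chain the SD within the CETP pair was of a size with the group difference. None of the 3 passed limma's test, with an adjusted p of 0.924 for each, and 0 of 22206 probe sets passed (0%). At an unadjusted p under 0.05 all 3 chains were higher, against 2.43% of all probe sets on the higher side and 1180 probe sets on both sides. C1qa and C1qb did not overlap between the groups, as was so for 12.2% of probe sets on that side. The chains had been chosen through the same standard-diet arrays, so these counts support nothing further.

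Replicate 4 set the size of this difference. Without it the log2 difference was 1.24 for C1qa (adjusted p = 0.902 by limma), 0.71 for C1qb and 0.40 for C1qc. Without replicate 5 it was 5.40 for C1qa, which then passed (adjusted p = 0.0454 by limma), 4.05 for C1qb (adjusted p = 0.130) and 3.49 for C1qc (adjusted p = 0.160), with the 1 remaining CETP standard-diet animal assumed to vary like the other groups. The spike-in level did not set replicate 4 apart, at 11.02 beside 11.22 on replicate 5 and 11.00 and 10.80 in wild type.

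The series title sets CETP animals of any diet against wild type, and for that the 2 CETP group means were averaged. The log2 difference was 2.43 ± 0.90 (SE) for C1qa, 2.01 ± 0.77 for C1qb and 1.39 ± 0.71 for C1qc. None passed limma's test over all probe sets, with adjusted p of 0.594, 0.595 and 0.668. Again 0 of 22206 probe sets passed (0%), and 1734 had an unadjusted p under 0.05. C1qa and C1qb were higher at an unadjusted p under 0.05, against 2.97% of probe sets on that side. All 5 CETP arrays lay above both wild-type arrays for the same 2 chains, as for 5.12% of probe sets. The median difference was 2.01 over the 3 chains and -0.05 over all probe sets. The chains had been chosen through the same CETP arrays, so this median and these counts support nothing further. Without standard-diet replicate 4 the differences were 1.39 for C1qa, 1.17 for C1qb and 0.62 for C1qc, so they stayed above 0 but shrank. These 3 comparisons share the wild-type arrays.

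**Figure D2:**
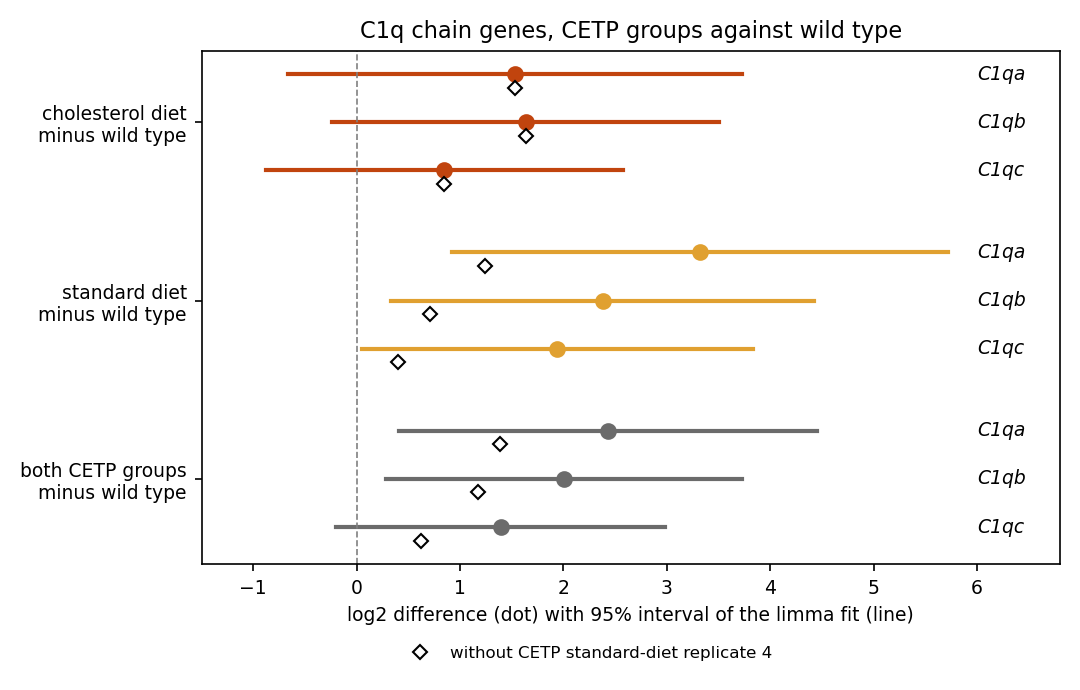
Log2 difference from wild type (horizontal axis) of the 3 C1q chain genes for CETP cholesterol diet, CETP standard diet and the mean of both (rows); dots are estimates, lines their 95% intervals in the limma fit, and open diamonds the estimate without CETP standard-diet replicate 4. The standard-diet estimates of 3.32, 2.38 and 1.94 move to 1.24, 0.71 and 0.40 without that array, and those of the cholesterol diet (1.53, 1.63 and 0.85) do not use it.

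Within CETP mice, cholesterol diet minus standard-diet label, the log2 differences were -1.79 ± 0.98 (SE) for C1qa, -0.75 ± 0.83 for C1qb and -1.10 ± 0.77 for C1qc. This contrast chose the probe sets and was not tested. Without standard-diet replicate 4 the differences turned to 0.29, 0.92 and 0.45. The lower mean on the cholesterol diet thus rested on 1 animal, and for C1qa 2 of the 3 cholesterol-diet animals (10.44, 9.10 and 9.70) lay above standard-diet replicate 5 (9.46).

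Markers of microglia were high on the array where C1q was high. Of 28 microglia markers 17 had a name here, all from the same fold table, and all 17 were highest on CETP standard-diet replicate 4. All 17 also had a lower mean on the cholesterol diet than on the standard-diet label, the contrast by which the table chose its genes, so that this count was largely set by the choice. All 17 lay above the negative control median on that array, through which they had been named, and 7 to 10 of the 17 did so on each of the others. The median of all probe sets was 7.51 to 7.59 per array, close to the negative control medians of 7.48 to 7.69. All probe sets thus split roughly evenly around that level. The summed level of the 17 genes, as log2 of the sum of linear values, ran from 13.38 to 14.19 in CETP mice on the cholesterol diet and was 16.20 and 13.76 in CETP mice labelled standard diet, against 13.01 to 13.50 in wild type. Ctss, a lysosomal protease of microglia, measured 13.92 on replicate 4 and 10.99 on replicate 5. The defining microglial genes Aif1, Trem2 and Tyrobp were above the negative control median on replicate 4 alone. Aif1 is named here after its values were seen. P2ry12, Tmem119 and Csf1r were not analysed here.

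In the comparison with wild type, 0 of the 17 microglia genes passed limma's test for either CETP group. For CETP mice labelled standard diet 17 of 17 had a higher mean, 11 of them at an unadjusted p under 0.05, with a median difference of 1.48. Over all probe sets 42.7% had a higher mean in that comparison, and 2.43% were higher at that unadjusted level. However, the 17 genes had been chosen through the same standard-diet arrays and these counts support nothing further. For CETP mice on the cholesterol diet 15 of 17 had a higher mean, as had 43.6% of all probe sets, with a median of 0.59. None reached that unadjusted level, in a fit that pools the spread of all groups, the standard-diet pair included. All 3 cholesterol-diet arrays lay above both wild-type arrays for 6 of the 17 genes and for 9.98% of all probe sets. Over all probe sets the median differences were -0.05 in both comparisons. Among the most abundant members, the log2 difference of cholesterol diet minus wild type was 0.72 ± 0.70 (SE) for Ctss, 1.53 ± 0.70 for the adhesion ligand gene Selplg and -0.25 ± 0.61 for the receptor gene Gpr34. For the standard-diet label minus wild type they were 1.95 ± 0.76, 2.41 ± 0.76 and 1.28 ± 0.67. Of the 3 cholesterol-diet animals replicate 2 was the lowest for 14 of the 17 genes, as it was for the 3 C1q chains and for 34.4% of all probe sets.

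**Figure D3:**
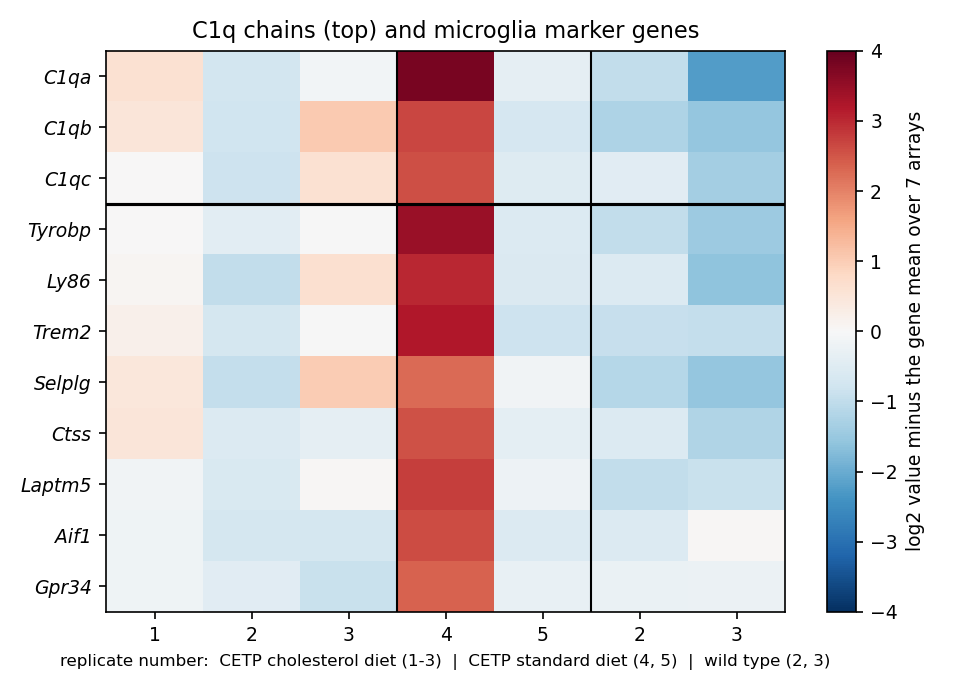
Log2 value minus each gene's mean over 7 arrays (colour) for the 3 C1q chain genes, above the line, and the 8 of the 17 microglia marker genes that the text names (5 of them for their likeness to C1q), below it, on each array (columns, grouped as cholesterol diet, standard diet and wild type). All genes shown are highest on CETP standard-diet replicate 4, where C1qa is at 3.79.

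The C1q chains and the microglia list were set side by side on each array. The median deviation of the 17 genes from their means was 0.03, -0.55 and -0.03 on cholesterol-diet replicates 1, 2 and 3 and 2.36 and -0.27 on standard-diet replicates 4 and 5, against -0.54 and -0.85 on wild-type replicates 2 and 3. The mean of the C1q chains on the same arrays was 0.37, -0.78 and 0.52 on the cholesterol diet and 3.01 and -0.52 on the standard-diet label, against -0.89 and -1.71 in wild type. Subtracting one from the other left 0.34, -0.23 and 0.55 on the cholesterol diet and 0.65 and -0.25 on the standard-diet label, against -0.35 and -0.86 in wild type. A median over 17 genes tends to vary less than 1 gene or a mean of 3. What is left thus cannot show whether C1q differs from single microglia genes, which were not treated in this way. The part of microglial RNA in the C1q differences was not tested.

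**Figure D4:**
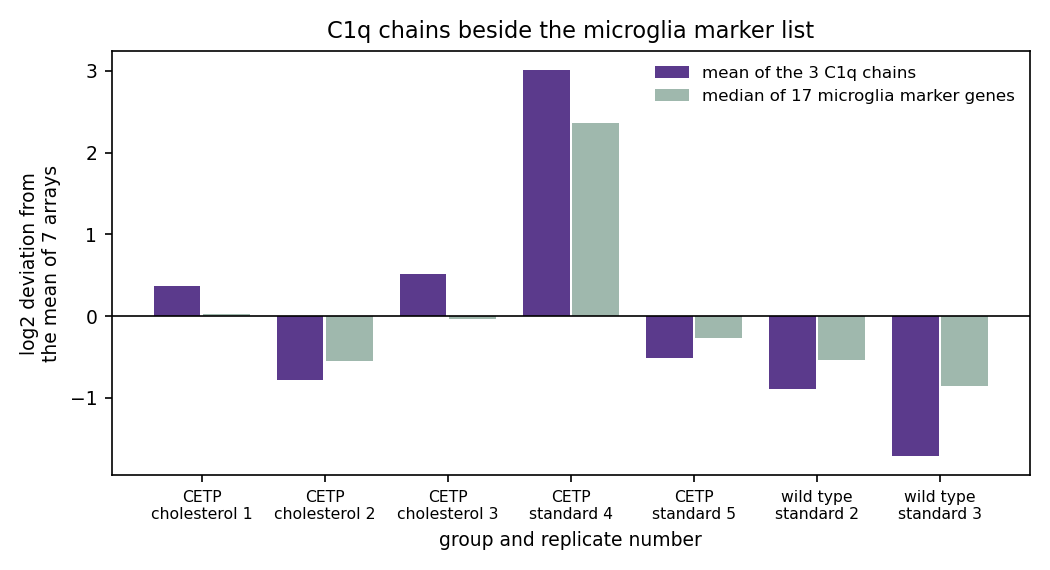
Deviation from the mean of 7 arrays on the log2 scale (vertical axis) for the mean of the 3 C1q chain genes and the median of 17 microglia marker genes on each array (horizontal axis, group and replicate number). Both are highest on CETP standard-diet replicate 4, at 3.01 and 2.36, and lowest on wild-type replicate 3, at -1.71 and -0.85.

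Lists for other cell types were read on the same arrays. The endothelial list had 3 named of 10 members, all 3 highest on CETP standard-diet replicate 4, as were 9.86% of all probe sets. All 3 also had a lower mean on the cholesterol diet than on the standard-diet label. That contrast chose the named genes, so this count was largely set by the choice. Their summed level was 11.51 to 11.91 in CETP mice on the cholesterol diet and 12.63 and 11.89 in CETP mice labelled standard diet, against 10.99 to 11.34 in wild type. The summed level of the 2 astrocyte genes was 14.80 to 15.71 on the cholesterol diet and 14.99 and 14.93 on the standard-diet label, against 14.63 to 15.01 in wild type. Sox9 makes up most of this sum and was 14.68 and 14.70 on replicates 4 and 5, while Slc1a3 was 12.62 and 12.20. The C1q chains lay further apart in this pair, but all these genes were named through a contrast that uses both arrays. S100a8, the 1 named of 10 monocyte and neutrophil markers, was under the negative control median on all 7 arrays. On the cholesterol diet some genes of several cell types had higher means than in wild type. The log2 difference was 1.23 ± 0.38 (SE) for Slc1a3, 0.86 ± 0.29 for the neuronal kinase gene Camk2a (1 of 10 neuronal markers named) and 0.81 ± 0.31 for Olig2, a transcription factor gene of the oligodendrocyte lineage (1 of 6 precursor markers named). It was 0.70 ± 0.27 for the endothelial receptor gene Flt1, but 0.28 ± 0.38 for Tek and -0.04 ± 0.20 for Kdr, the other named endothelial genes. Slc1a3, Camk2a, Olig2 and Flt1 each had an unadjusted p under 0.05 by limma there, as had 3.37% of all probe sets on the higher side. They are the only named members of their 4 lists that reached that level, so this was set by the choice. None of the 4 passed limma's test after adjustment (adjusted p of 0.505, 0.517, 0.539 and 0.549). They had been named through the same table, and their part in the C1q difference was not tested. The pericyte list (2 of 7) and the choroid plexus list (2 of 8) had 0 genes past limma's test. No member was named for perivascular macrophages, lymphocytes or oligodendrocytes, which were not analysed here.

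The rest of the complement system was thinly covered. Of 23 genes of complement initiation and its terminal steps, among them those for C1r, C1s, C2 and C3, 0 had a name of their own here, and an entry that named both C4 genes was not assigned to either. Of 22 regulators 2 were named, and neither passed limma's test. Csmd3, a large membrane protein gene with complement control domains, was under the negative control median on all 7 arrays.

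Of 18 complement receptors and C1q-binding proteins 5 were named. C3ar1, the receptor for the C3a fragment, Itgax and Itgb2, whose products form complement receptor 4, and C5ar1, a receptor for C5a, were under the negative control median on all 7 arrays. Their order among arrays is therefore not given. Lrp1, a large endocytic receptor that can bind C1q, had log2 values of 15.24, 14.86 and 15.59 on the cholesterol diet and 15.05 and 14.42 on the standard-diet label, against 15.03 and 15.02 in wild type. Its groups overlapped. None of the 5 genes passed limma's test. Among 27 relatives that share the globular C1q domain 2 were named. Cbln1, a synapse organiser, was highest on cholesterol-diet replicate 1, and Mmrn2, of the vessel wall, was highest on cholesterol-diet replicate 3, so neither had its highest value on the array where C1q peaked.

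Of 10 myeloid transcription factors 3 were named. Spi1, which encodes PU.1, had log2 values of 7.95, 7.23 and 8.18 in CETP mice on the cholesterol diet and 9.63 and 7.96 in CETP mice labelled standard diet, against 7.44 and 7.17 in wild type. Its order of arrays resembled that of C1qb, with replicate 4 highest and wild-type replicate 3 lowest. However, Spi1 was above the negative control median on only 4 of 7 arrays, and both wild-type values were under it. This order and the differences from wild type are therefore uncertain, and a link to C1q was not tested. The difference from wild type was 0.48 ± 0.45 (SE) on the cholesterol diet and 1.49 ± 0.49 on the standard-diet label, and neither passed limma's test (adjusted p = 0.771 and 0.924). Runx1, a regulator of blood cell development, was above the negative control median on replicate 4 alone. Of the cytokines that act on astrocytes with C1q, Il1a was under the negative control median on all 7 arrays, at 7.07 on replicate 4 and 4.85 to 5.74 on the others, and Tnf was not analysed here. Il1b measured 8.95 on replicate 4 and 7.54 to 7.77 elsewhere. In the A1 reactive astrocyte list 2 of 12 were named. Psmb8, an immunoproteasome subunit, measured 8.64 and 8.15 on standard-diet replicates 4 and 5, against 7.33 and 7.28 in wild type, with a difference of 1.09 ± 0.28 (SE, adjusted p = 0.924 by limma). Iigp1, an interferon-induced GTPase, differed by 0.46 ± 0.32 in the same comparison. For the cholesterol diet minus wild type the difference was 0.24 ± 0.26 for Psmb8 and -0.32 ± 0.29 for Iigp1. Both wild-type values of both genes were under the negative control median.

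The genes most like the C1q chains over the 7 arrays were found by the root mean square difference between deviations from the mean, among 1591 other named genes. The 8 nearest were Ly86, Fcgr2b, Tyrobp, Inpp5d, Csf3r, Trem2, Selplg and Laptm5, with differences of 0.20 to 0.44 on the log2 scale, where the median probe set had 1.45. Of these 8 genes 5 were on the microglia list, which had 17 members among the 1591 genes compared. All 17 were highest on standard-diet replicate 4, where the C1q profile peaks and through which the genes were named. This count is thus not independent of that choice. Without that array 1 of the 8 nearest genes was on the list. C1qa, C1qb and C1qc themselves lay 0.44, 0.29 and 0.30 from their common mean. Ly86, which encodes a partner of a Toll-like receptor relative, was nearest of all probe sets, with log2 values of 9.42, 8.34 and 9.95 on the cholesterol diet and 12.35 and 8.74 on the standard-diet label, against 8.80 and 7.71 in wild type. Fcgr2b, the inhibitory receptor for immunoglobulin G, measured 9.82, 8.37 and 9.93 on the cholesterol diet and 12.63 and 9.03 on the standard-diet label, against 8.02 and 7.97 in wild type. Like C1qa and C1qb, it was higher on every CETP array than on both wild-type arrays, as were 5.12% of all probe sets. The same held for Tyrobp, Inpp5d, Csf3r, Trem2, Selplg and Laptm5, but not for Ly86. Inpp5d, a lipid phosphatase of blood cells and microglia, measured 10.78 on replicate 4 and 6.98 to 8.77 on the other arrays. The likeness is a description over 7 arrays of which 1 stands apart.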

How the data were processed

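RNA of each animal (10 ng, per the labels) was hybridized to 1 single-colour array. The authors deposited log2 values per probe set. How they summarized and normalized them was not given in the sources used here, and base 2 was taken from the range of the values. Of the table's entries 22206 transcript cluster probe sets were analysed, with medians of 7.51 to 7.59 per array and pairwise correlations of 0.977 to 0.992, and 5222 negative controls served as the background level. Names came from the authors' deposited fold table, whose signed fold is a score and was used only to find which groups it compared. Of its 1778 entries 1526 matched a RefSeq gene on the chromosome in the probe set ID, 160 named several genes and were dropped with 11 on another chromosome, and 1607 probe sets of 1594 genes were used.

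All 7 arrays entered 1 limma fit (limma 3.58.1, R 4.3.3, lmFit and eBayes) of 3 group means without covariates, with 4 residual and 5.38 prior degrees of freedom. P-values are two-sided and Benjamini-Hochberg adjusted over all probe sets, at a threshold of 0.05. The fit was tested on simulated data. Members and gene lists were chosen with earlier results of these data known. The text names every complement list member with a name, up to 12, the 4 members of each other list with the highest mean at most, and the 8 genes nearest to the C1q profile. A few of these genes are not reported here. The alternatives left out each array in turn, used the compared groups alone, or applied quantile normalization, subtraction of the array or negative control median, a filter on dim probe sets, 1 probe set per gene, array weights, a trended robust prior, a spike-in covariate, a replicate block and the 5 CETP arrays as 1 group. Other steps used Python 3.11.15.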

Additional observations from a re-analysis of the deposited data

How the results depend on the processing

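Of 147 values of the C1q chains against wild type under the alternatives, 90 differed from the reported value by more than 0.005, while most of the others came from settings that cannot move an estimate, such as another prior or an array outside the comparison left out. All 147 were above 0, and 1 passed an adjusted p of 0.05 by limma, C1qa for the standard-diet label without CETP standard-diet replicate 5 (5.40, adjusted p = 0.0454). Leaving out each array in turn gave 0.90 to 2.16 for C1qa, 1.23 to 2.15 for C1qb and 0.39 to 1.30 for C1qc on the cholesterol diet. On the standard-diet label it gave 1.24 to 5.40, 0.71 to 4.05 and 0.40 to 3.49, and for the mean of both CETP groups 1.39 to 3.47, 1.17 to 2.84 and 0.62 to 2.17. For cholesterol diet minus standard-diet label the ranges were -3.87 to 0.29 for C1qa, -2.41 to 0.92 for C1qb and -2.64 to 0.45 for C1qc. The directions turned, to 0.29, 0.92 and 0.45, only where standard-diet replicate 4 was left out. Of 49 counts of probe sets past the threshold 46 were 0. Without replicate 5 they were 13 for the standard-diet label (range 0 to 13) and 3 for the mean of both groups (range 0 to 3), and the cause was not tested. With the replicate number as a block, in the 5 arrays of the cholesterol diet and wild type, 7 probe sets passed with 1 residual degree of freedom, none of them a C1q chain (1.19, 1.52 and 0.80, adjusted p of 0.687, 0.627 and 0.860 by limma). Deviations of same-numbered arrays from their group means had correlations of 0.008 and 0.037 over probe sets. With 2 wild-type arrays the deviation of one mirrors that of the other, so these values are not independent. They cannot show whether same-numbered arrays shared more than the number. No paired analysis was possible for the other comparisons because the standard-diet label shares no replicate number with wild type. Low signal limits C1qb and C1qc, which lay under the negative control median on 4 and 5 of 7 arrays.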

Other observations

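Without CETP standard-diet replicate 4, a choice made after seeing the data, the genes nearest to the C1q profile were mostly others. Of the 8 nearest over 6 arrays 1 was also among the 8 nearest over 7 arrays, the microglia marker Ly86 (root mean square difference 0.22). The other 7 were MT-ND6 (0.19), Gps2, Ubqln2, Rasl11b, Epc1, Ndufb8 and Prelp, and none of them was on the microglia list. MT-ND6, a mitochondrial gene of respiratory complex I under the name the file gives, had log2 values of 18.15, 17.37 and 18.33 in CETP mice on the cholesterol diet and 17.21 and 17.06 in CETP mice labelled standard diet, against 17.16 and 16.06 in wild type. Over these 6 arrays the median probe set had a root mean square difference of 0.82 from the C1q profile. C1qa, C1qb and C1qc themselves lay 0.33, 0.28 and 0.26 from it, further than each of the 8 nearest genes. The hybridization spike-in level, 11.41, 11.21 and 11.77 on the cholesterol diet and 11.22 on standard-diet replicate 5, against 11.00 and 10.80 in wild type, also had its highest value on cholesterol-diet replicate 3 and its lowest on wild-type replicate 3. Its part in the C1q values was not tested beyond the covariate fit.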
